A study of Oreochromis niloticus with 6 samples.

Results

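Genes for 3 enzymes that drive carbon from pyruvate toward glucose were followed in the liver of the Nile tilapia, Oreochromis niloticus, after knockdown of elovl6, which encodes an elongase of palmitic acid. The members were the genes whose deposited product name begins with phosphoenolpyruvate carboxykinase (PEPCK), fructose-1,6-bisphosphatase (FBP) or pyruvate carboxylase (PC). There were 6 such genes among the 29528 genes of the table, 2 for PEPCK, 3 for FBP and 1 for PC. No other gene carried the orthology number of any of them. The knockdown group held 3 liver libraries from fish treated with antisense RNA against elovl6. The negative control group held 3 liver libraries from fish labelled WT. The treatment protocol names antisense knockdown for all 6 libraries, the controls included, so groups were taken from title and genotype, and what the control fish received is not given in the sources used here. All fish were males fed pellets with 5% palm oil, and age and strain are not given. RNA came from 18 fish, 9 per group, and was pooled over 3 tanks per group. The labels do not say whether the libraries of a group were separate pools, so p-values measure only the spread between libraries, which may be technical.

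Pyruvate carboxylase adds carbon dioxide to pyruvate inside mitochondria and makes oxaloacetate, with biotin as its cofactor. PEPCK turns oxaloacetate into phosphoenolpyruvate and exists as a cytosolic form, pck1, and a mitochondrial form, pck2. FBP removes a phosphate from fructose 1,6-bisphosphate further up the same route and opposes phosphofructokinase. In mammalian liver the cytosolic PEPCK gene is known for strong hormonal control, being raised by glucagon and glucocorticoids and lowered by insulin.

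Libraries held 14341242 to 14973737 reads in the knockdown and 15322360 to 17245179 in the control group. The targeted gene elovl6 fell (log2 fold change -2.12, SE 0.05, edgeR adjusted p = 1.58e-22) and had a mean of 37.6 ± 1.48 FPKM in the knockdown against 162 ± 1.53 FPKM in the control libraries (SD, n = 3 each). FPKM is reads per kilobase of gene and per unit of library size, so levels of different genes can be compared on it. Differences are log2 fold changes of knockdown over control from edgeR's quasi-likelihood test on read counts, adjusted over the 11431 genes with a mean of at least 1 FPKM, and a gene was called at an adjusted p under 0.05. By that rule 78.2% of all tested genes were called, 39.1% higher and 39.1% lower, and the groups did not overlap in 79.5%. The mean of the filter is over all 6 libraries, so a gene under 1 FPKM in either group could pass through the other. The median log2 fold change of all tested genes was -0.01.

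Of the 6 members, 5 passed the filter on low values. Calls were made for 4 of these 5, with pck1, pc and the FBP gene LOC100705870 lower and the FBP gene LOC100703430 higher, beside the 78.2% of all genes. Among the 5 tested members the groups did not overlap in the same 4, beside 79.5% of all tested genes. LOC100703430 passed the filter only through its knockdown level. Of the PEPCK genes, cytosolic pck1 fell 87.6-fold and mitochondrial pck2 was not called.

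**Figure D1:**
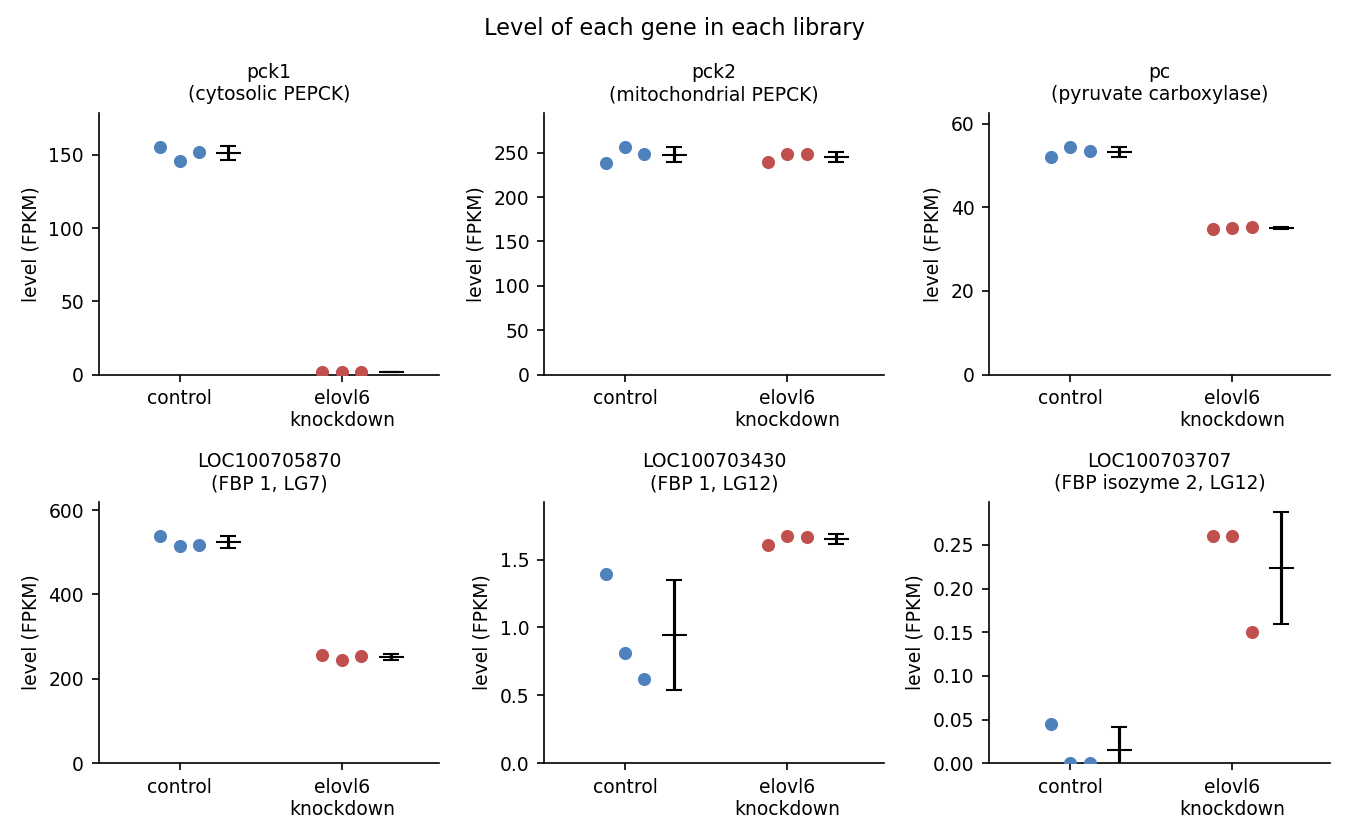
FPKM of each of the 6 genes in each library (points; blue control, red knockdown), with mean and SD beside them (n = 3 per group) and a linear axis from 0 in each panel. Control and knockdown points lie far apart for pck1 (146 to 155 against 1.61 to 1.97 FPKM) and interleave for pck2.

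The gene pck1 encodes cytosolic PEPCK and lies on the minus strand of linkage group LG5 from 14679856 to 14685233 (coordinates of the O_niloticus_UMD_NMBU assembly here and below). Its level was 1.97, 1.63 and 1.61 FPKM in knockdown libraries 1, 2 and 3 and 155, 146 and 152 FPKM in control libraries 1, 2 and 3. Every knockdown library was far below every control library. Behind these levels stood 80, 66 and 68 reads against 7260, 6323 and 7415. The log2 fold change was -6.45 (SE 0.07, 95% interval -6.61 to -6.30, edgeR adjusted p = 1.11e-28). By size of fall it was number 64 of 11431 tested genes, and 75 genes were called lower with a log2 fold change of -6 or beyond. In order of level, pck1 went from place 411 of the tested genes in the controls to place 9262 in the knockdown. The next annotated gene, LOC109194454, an MHC class II beta chain-like gene on the opposite strand, begins 140 bases beyond pck1 and held 2 reads in knockdown libraries and 4 in controls. On the other side, 12302 bases away, pmepa1 (LOC100691730) was under the filter in both groups with 187 and 62 reads.

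Mitochondrial PEPCK, pck2, lies on the plus strand of LG9 from 27122642 to 27135108. It stood at 239, 248 and 248 FPKM in knockdown libraries and at 239, 256 and 248 FPKM in controls, and the groups overlapped. The log2 fold change was -0.02 (SE 0.04, 95% interval -0.10 to 0.05, edgeR adjusted p = 0.562), so the interval ran from 1.07-fold lower to 1.04-fold higher. For comparison, 6.12% of all tested genes had a log2 fold change within 0.1 of 0. With no filter on low values, and with edgeR's own filter on counts, pck2 was called lower, at log2 fold changes of -0.12 (adjusted p = 0.00267) and -0.10 (adjusted p = 0.0131), while the tested genes as a whole shifted by -0.096 and -0.077. Its neighbour psme1, a proteasome activator subunit gene 6328 bases away, rose (log2 fold change 0.52, SE 0.10), and LOC106097246, sialoadhesin-like, 1204 bases away, had 16 reads against 0.

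The share of pck1 in PEPCK was lower in every knockdown library. In the controls pck1 made up 39.4%, 36.3% and 38.0% of the summed PEPCK level, and in the knockdown 0.817%, 0.652% and 0.643%. The log2 ratio of pck1 to pck2, with 0.1 FPKM added to each, was -7.07 ± 0.19 in knockdown libraries and -0.71 ± 0.10 in controls (SD, n = 3 each), a difference of -6.36. An exact permutation test over libraries gave p = 0.1 (2-sided), the smallest that 3 against 3 allow, and 0.1 after adjustment over the 4 ratios tested. Because pck2 was the more abundant form in both groups and hardly differed between them, the summed PEPCK level differed much less than pck1 did. It was 241, 250 and 250 FPKM in the knockdown against 394, 402 and 400 FPKM in the controls, 1.61-fold lower (exact permutation p = 0.1, n = 3 each).

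**Figure D2:**
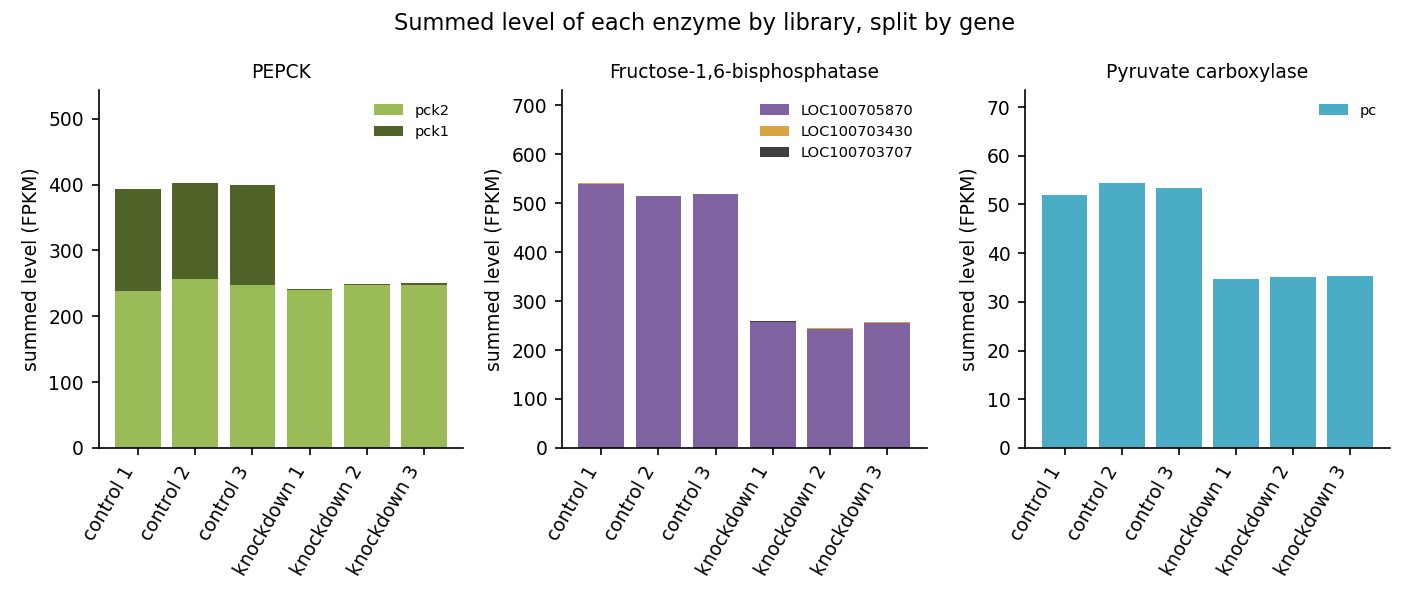
Summed FPKM of the genes of each enzyme in each library, stacked by gene on linear axes from 0. The dark pck1 part of the PEPCK bars, 36.3% to 39.4% of the bar in the controls, is barely visible in the knockdown, while the pck2 part reaches 239 to 256 FPKM in all libraries.

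Pyruvate carboxylase was represented by a single gene, pc, which NCBI names pcxb and which spans 10552402 to 10834701 on the plus strand of LG3. Its level was 34.7, 35.2 and 35.3 FPKM in knockdown libraries and 51.9, 54.4 and 53.4 FPKM in controls. All knockdown libraries lay below all controls, with little spread in either group. The log2 fold change was -0.61 (SE 0.04, 95% interval -0.70 to -0.53, edgeR adjusted p = 7.07e-13), 1.53-fold lower. A gene on the opposite strand inside this span, LOC102078091, had 0 reads in both groups. The strand setting of the counting is not given, so antisense reads could not be told from reads of the genes themselves.

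Almost all FBP reads came from LOC100705870, described as FBP 1 and named fbp1b by NCBI, on the minus strand of LG7 from 13908296 to 13910935. Its level was 256, 243 and 255 FPKM in knockdown libraries and 539, 515 and 518 FPKM in controls. No knockdown library came near a control library. The log2 fold change was -1.07 (SE 0.04, 95% interval -1.15 to -0.98, edgeR adjusted p = 6.34e-18), 2.10-fold lower. This gene made up 99.7% to 99.9% of the summed FBP level in the controls and 99.2% to 99.3% in the knockdown. In the controls it was the most abundant of the 6 members, and in the knockdown its mean of 252 ± 7.16 FPKM lay close to that of pck2, 245 ± 5.19 FPKM, with overlapping libraries. The genes on either side, gas1b (LOC100698868) and LOC100699135, were under the filter.

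The other FBP genes form a tandem pair on the plus strand of LG12, separated by 622 bases. The first, LOC100703430, is also described as FBP 1, is named fbp1a by NCBI and spans 35899043 to 35906983. It had 50, 52 and 54 reads in knockdown libraries and 50, 27 and 23 reads in controls, or 1.61, 1.68 and 1.67 against 1.40, 0.814 and 0.616 FPKM. Control library 1 came close to the knockdown libraries, and the other controls were lower. The log2 fold change was 0.79 (SE 0.34, 95% interval 0.09 to 1.5, edgeR adjusted p = 0.0379). That call was lost when any knockdown library or control library 2 or 3 was left out (adjusted p = 0.0553 to 0.182), and without control library 1 the log2 fold change was 1.21. It was also lost with no filter on low values (adjusted p = 0.0736) and with edgeR's own filter (0.0657).

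The second gene of the pair, LOC100703707, is described as FBP isozyme 2, the form of skeletal muscle in mammals, is named fbp2 by NCBI and spans 35907606 to 35919707. It was under the filter and had no test among the 11431 genes. Its reads numbered 5, 5 and 3 in knockdown libraries and 1, 0 and 0 in controls, and all knockdown libraries lay above the controls. Per library total this is a ratio of 14.6 with an exact 95% interval of 2.2 to 621 that covers counting error only. In a fit with no filter the adjusted p was 0.115. Muscle markers were close to absent in both groups, since all 22 of them were under the filter and 14 had no read. Among them LOC100709030 (ryr1b) had 52 knockdown and 5 control reads, and LOC100709026 (mylpfb) 22 and 33. The part of muscle in the few reads of LOC100703707 was not tested. Of the genes that flank the pair, kank1 was not called (log2 fold change 0.15, adjusted p = 0.113), and the cathepsin gene LOC100703974 (ctsla), 735 bases from the pair and on the opposite strand, rose from 127 to 382 FPKM.

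The FBP genes were also compared with each other. The log2 ratio of LOC100705870 to LOC100703430 was 7.17 ± 0.07 in knockdown libraries and 9.04 ± 0.51 in controls, a difference of -1.87 (exact permutation p = 0.1, n = 3 each). That of LOC100705870 to LOC100703707 differed by -2.55, and that of LOC100703430 to LOC100703707 by -0.68, again with p = 0.1 in the exact permutation test. With 1 control read of LOC100703707, the sizes of both depend on the constant added. The first was -1.32 with 1 FPKM added in place of 0.1, and -4.74 with 0.01. The second changed sign to 0.20 with 1 FPKM, and was -2.80 with 0.01. How reads with several matches were counted is not given, so the division of reads between the FBP 1 copies is uncertain. The summed FBP level was 254 ± 7.11 FPKM in knockdown libraries and 525 ± 13.9 FPKM in controls, 2.07-fold lower (exact permutation p = 0.1).

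Summed levels of all 3 enzymes were thus lower in every knockdown library than in any control library, by 2.07-fold for FBP, 1.61-fold for PEPCK and 1.52-fold for PC. The proportions between the enzymes are given without a test. For each FPKM of FBP there were 0.933, 1.02 and 0.973 FPKM of PEPCK in knockdown libraries and 0.728, 0.780 and 0.772 in controls. Against PC, FBP stood 7.23 ± 0.237 times higher in the knockdown and 9.86 ± 0.488 times higher in the controls, and PEPCK 7.04 ± 0.0824 and 7.49 ± 0.0936 times higher.

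**Figure D3:**
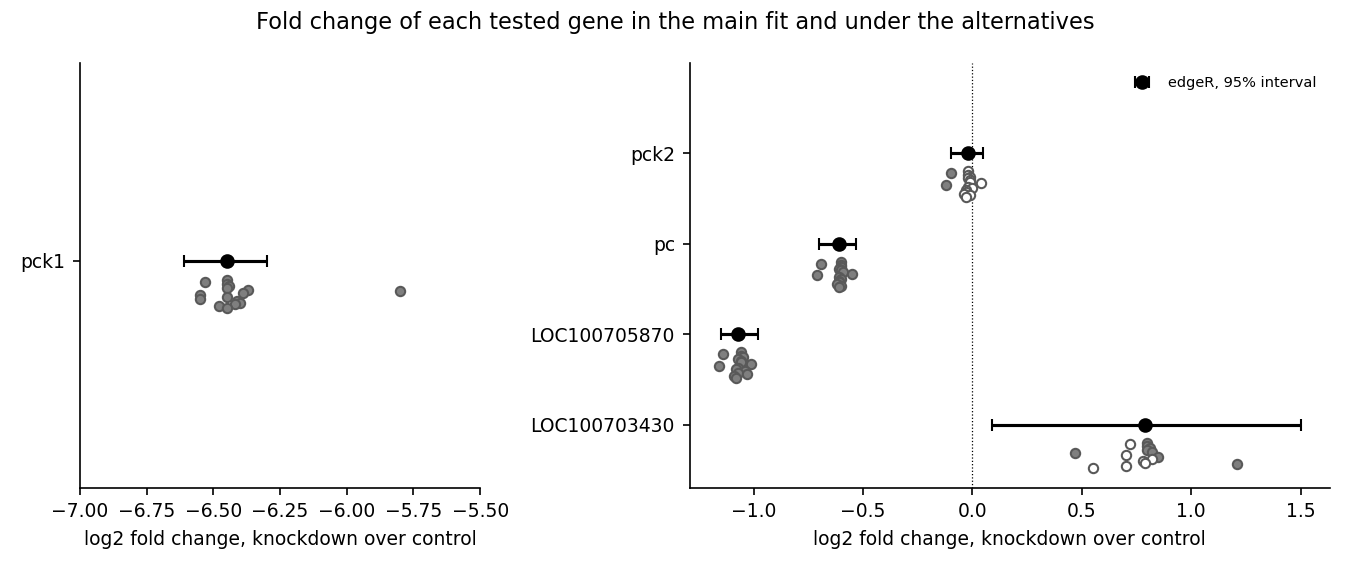
Log2 fold change of each of the 5 tested genes, knockdown over control. Black points with bars give edgeR's estimate and 95% interval, and grey points give the alternatives, filled where the adjusted p was under 0.05 and open where it was not. The values for pck1 lie between -6.55 and -5.80, and those for LOC100703430 include open points from 0.55 to 0.82.

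Markers of other cell types differed between the groups beside pck1. In tilapia, exocrine pancreas tissue lies within the liver, and of 28 tested exocrine pancreas markers 25 fell and 3 rose, with a median log2 fold change of -7.02. Summed over the whole list, the level was 47810 to 48550 FPKM in the control libraries and 635 to 796 FPKM in the knockdown libraries. Through product names the list also holds LOC100699903 (cpb2), with 24170 reads in the controls and 26100 in the knockdown. It had more knockdown reads than any other gene of the list, so the knockdown sum depends in large part on it. In 18 of the 28 the fall was larger than that of pck1. Genes with few knockdown reads, such as LOC100711807 (13 reads, against 2988 in the controls), could pass the filter through the controls alone. Their fall then follows from how they entered, and its size rests on few reads. Of 11 tested red blood cell markers 10 fell and 1 rose (17160 to 17760 FPKM summed in the controls, 2602 to 2822 in the knockdown), and all 10 tested macrophage and leukocyte markers rose (137 to 152 against 440 to 450 FPKM). Leukocyte markers with few control reads, such as LOC100692791 (spi1a; 40 reads, against 400 in the knockdown), could pass the filter through the knockdown alone. A rise of such genes then follows from how they entered. Of 16 tested hepatocyte markers 7 rose and 8 fell, and their summed level went from 55420 to 56590 FPKM in the controls to 47040 to 48010 FPKM in the knockdown. The part of these cell types in the results for the 6 genes was not tested, and in bulk tissue fewer cells of a type and less RNA per cell cannot be told apart. Leaving the exocrine pancreas list out before scaling gave the same log2 fold changes to within 0.01 for all 5 tested members.

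**Figure D4:**
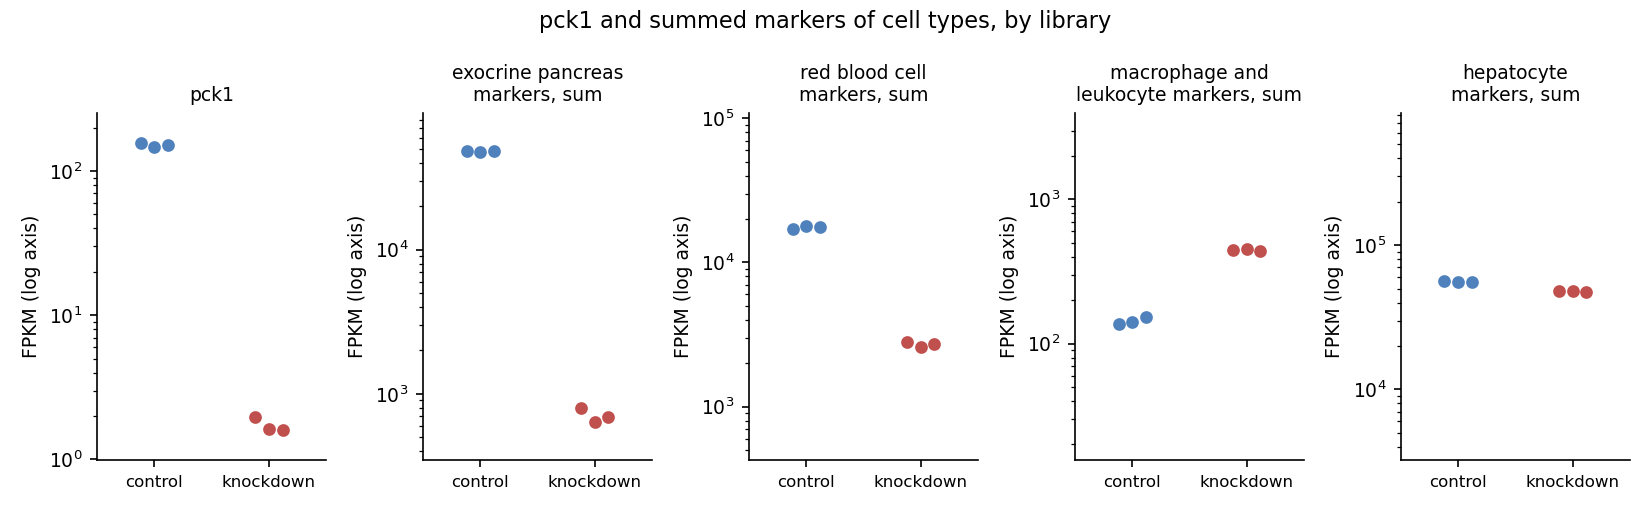
FPKM of pck1 and summed FPKM of 4 marker lists in each library (blue control, red knockdown) on log axes that each span the same range of folds. The exocrine pancreas sum drops from 47810 to 48550 to between 635 and 796 FPKM, and the hepatocyte sum stays between 47040 and 56590 FPKM.

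Summed kidney markers stood at 1.75 to 1.93 FPKM in the controls and 8.88 to 10.2 FPKM in the knockdown, and intestine markers at 72.2 to 73.9 and 117 to 130 FPKM. Of 12 kidney markers 5 had no read and only cdh17 was tested (higher, 212 reads in the controls and 1211 in the knockdown). Of 9 intestine markers 3 had no read, and the only one tested, apoa4b, held nearly all the reads of the list and rose (3956 reads in the controls and 5921 in the knockdown, log2 fold change 0.74). Of 12 endocrine pancreas markers 1 was tested, pdx1, and it rose (0.81). The adipocyte list, which through product names also holds adiponectin receptor genes, had 4 tested genes, of which 2 rose and 1 fell.

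The genes most like each tested member were found by the distance between their log2(FPKM + 1) profiles over the 6 libraries after centring, as a root mean square. Nearest to pck1 were the betaine-homocysteine methyltransferase gene LOC100704302 (bhmt; distance 0.10), the glucokinase gene gck (0.156) and LOC109199141, annotated as programmed cell death 1 ligand 1 (0.184). The bhmt gene had 12.1, 9.34 and 11.2 FPKM in knockdown libraries and 686, 717 and 714 FPKM in controls. For gck the levels were 13.8, 9.58 and 10.4 FPKM against 837, 784 and 789. LOC109199141 passed the filter only through the controls, with 3 reads in knockdown libraries and 2846 in controls, and fell 760-fold, more than pck1. The 1 FPKM added before taking logarithms narrows that difference. None of these 3 genes had overlapping groups, which follows from their choice by likeness to pck1. Closest to pck2 were a fetuin-B gene, LOC100695238 (0.023), the ATP synthase subunit gene atp5f1a (0.027) and tmem97 (0.027), none of them called. Nearest to pc were LOC109194371 (paics; 0.020), aldh6a1, a gene of valine breakdown (0.024), and the glycolytic gene gapdh (0.025), which fell by 0.61, 0.61 and 0.57 on the log2 scale. LOC100705870 was closest to the cathepsin gene LOC100705613 (0.029), a UDP-glucuronosyltransferase gene, LOC100534482 (0.032), and pdia5 (0.033). The weakly read LOC100703430 was closest to thoc7 (0.057), the ribosomal protein gene LOC100696027 (0.058) and lg15h12orf57 (0.076).

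Counts of the lists below stand beside 39.1% higher and 39.1% lower over all tested genes, and no set was tested. Of 21 tested genes of substrate entry, whose enzymes feed carbon into the route, 6 rose and 11 fell (median log2 fold change -0.41). Among those that fell were got1, cytosolic aspartate aminotransferase, which interconverts aspartate and oxaloacetate (94.0 to 103 FPKM in the controls, 11 to 12.3 in the knockdown, log2 fold change -3.10, SE 0.06), and gpt, alanine aminotransferase, which makes pyruvate from alanine (-1.87, SE 0.05). The alanine aminotransferase genes LOC100703768 and LOC109195664 fell too (-1.56, SE 0.15, and -1.79, SE 0.37). The knockdown mean of LOC109195664 was 0.872 FPKM, so it passed the filter only through the controls. In contrast, LOC100690242, also described as an alanine aminotransferase, rose from 15.8 ± 0.472 to 47.4 ± 0.302 FPKM (1.57, SE 0.06). The aspartate aminotransferase genes LOC100691210 (cytosolic) and got2 (mitochondrial) were not called (log2 fold changes -0.05 and 0.06). The glycerol-3-phosphate dehydrogenase gene LOC100703678, whose enzyme links glycerol to the route, fell by 2.47 on the log2 scale. The related gene LOC100698967 (gpd1c) rose (1.36, SE 0.20). Mitochondrial gpd2 fell (-0.97, SE 0.25), with a knockdown mean of 0.801 FPKM, so it passed the filter only through the controls. Lactate dehydrogenase B, LOC100694281, which interconverts lactate and pyruvate, rose from 27.6 ± 1.91 to 107 ± 5.17 FPKM (3.86-fold).

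Oxaloacetate leaves mitochondria largely as malate or aspartate. Of 10 tested genes of this shuttle 4 rose and 4 fell (median -0.04). The mitochondrial dicarboxylate carrier gene LOC100693267 (slc25a10b) fell from 9.87 to 11.6 FPKM in the controls to 0.110 to 1.26 FPKM in the knockdown (log2 fold change -4.15, SE 0.31). Its knockdown mean was 0.596 FPKM, so it passed the filter only through the controls. The more abundant copy of this carrier, slc25a10, rose from 18.9 ± 0.730 to 24.7 ± 1.88 FPKM (0.38, SE 0.09). Mitochondrial malate dehydrogenase, mdh2, fell as well (-1.17, SE 0.11). So did the cytosolic forms LOC100711262, from 509 ± 15.5 to 245 ± 6.89 FPKM (-1.06, SE 0.04), and LOC100711978 (mdh1ab; -0.89, SE 0.15). The malic enzymes me1 and me3, which turn malate back into pyruvate, rose by log2 fold changes of 4.03 (SE 0.23) and 1.69 (SE 0.23). Their control means were 0.539 and 0.894 FPKM, so both passed the filter only through the knockdown libraries. Another malic enzyme gene, me2, was not called (-0.06, SE 0.21).

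Pyruvate carboxylase shares its cofactor with other carboxylases. Of 10 tested genes for biotin supply and the other biotin carboxylases 2 rose and 6 fell (median -0.37). Biotinidase, btd, which recycles biotin, rose from 57.0 ± 1.76 to 382 ± 8.16 FPKM (6.66-fold), and acacb, acetyl-CoA carboxylase 2, rose as well (log2 fold change 1.14, SE 0.10). Both copies of the multivitamin transporter that takes up biotin fell, LOC100707849 (slc5a6a) by 1.36 and LOC100705048 (slc5a6b) by 1.34 on the log2 scale.

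Genes for the step that opposes FBP, taken with those for an inhibitor of FBP, were mostly higher. Those for pyruvate kinase, whose step opposes PEPCK, went in both directions. Of 11 tested genes for phosphofructokinase, the enzymes of fructose 2,6-bisphosphate (an inhibitor of FBP) and pyruvate kinase, 8 rose and 1 fell (median 1.65, against -0.01 for all genes). The phosphofructokinase gene LOC100702997 (pfkma) rose from 6.13 to 7.45 FPKM in the controls to 36.1 to 38.4 FPKM in the knockdown (log2 fold change 2.46, SE 0.07). The weakly read LOC100698324 (pfkpb) rose too (3.61, SE 0.29), as did LOC100696336 (pfkfb4b), which makes and breaks down fructose 2,6-bisphosphate (2.57, SE 0.17), and pkm, a pyruvate kinase gene (from 3.79 to 13.6 FPKM, 1.83, SE 0.10). The more abundant pyruvate kinase gene, LOC100711399 (pklr), was the 1 that fell, from between 79.3 and 84.1 FPKM to between 48.0 and 55.8 FPKM (log2 fold change -0.64, SE 0.05). The control means of LOC100698324 and of LOC100703249 (pfkfb4a), which also rose, were 0.321 and 0.638 FPKM. Both therefore passed the filter only through the knockdown libraries. With no filter on low values 3 genes of this list were called lower.

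Pyruvate dehydrogenase competes with PC for pyruvate and is switched off by its kinases. Of 10 tested genes of that complex and its regulators 4 rose and 2 fell (median 0.21). The kinase genes LOC100701650 (pdk2a) and pdk4 rose from 11.9 ± 0.659 to 75.3 ± 3.79 FPKM and from 26.6 ± 2.06 to 89.8 ± 3.29 FPKM. So did pdp1, the phosphatase that opposes the kinases (log2 fold change 2.12, SE 0.07), whereas dlat, the acetyltransferase subunit of the complex, fell (-1.33, SE 0.09).

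At the end of the route, where glucose is released, 6 of 10 tested genes rose and 3 fell (median 0.77). The glucose-6-phosphatase gene g6pc rose from 14.8 to 17.4 FPKM in the controls to 601 to 611 FPKM in the knockdown. A second copy, LOC100534530 (g6pc1a.1), the more abundant one in the controls, fell from 33.4 ± 0.512 to 23.6 ± 2.13 FPKM (SE 0.08 on a log2 fold change of -0.51), whereas g6pc3 was not called. Aldolase B, LOC100694503, the liver aldolase that makes the substrate of FBP, fell from 2166 ± 23.9 to 309 ± 11.9 FPKM, and a copy of aldolase C, LOC100704344 (aldocb), rose from 9.46 ± 0.915 to 62.9 ± 4.57 FPKM. The glucose transporter gene LOC100534484 (slc2a2) fell 3.01-fold.

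Of 47 tested hormonal and transcriptional regulators of the route 26 rose and 16 fell (median 0.30). The stress-responsive factor atf3 rose from 0.762 to 0.924 FPKM in the controls to 45.6 to 46.4 FPKM in the knockdown. The forkhead factor gene LOC100706939 (foxo1a), whose mammalian counterpart activates pck1 and is restrained by insulin, rose 6.39-fold, from 0.778 to 0.929 to 4.82 to 6.20 FPKM. A glucocorticoid receptor copy, nr3c1, fell from 4.58 to 5.69 FPKM to 0.209 to 0.580 FPKM (log2 fold change -3.87, SE 0.26). Another copy, LOC100534398, to which NCBI gives the name nr3c1, was not called (log2 fold change 0.07, SE 0.12). It stood at 3.01 to 3.43 FPKM in the controls and 3.12 to 3.87 FPKM in the knockdown. The AMP-activated kinase subunit gene prkaa1 fell by 2.57 on the log2 scale (SE 0.30). Control means of atf3 and foxo1a were 0.834 and 0.866 FPKM, so both passed the filter only through the knockdown libraries. Knockdown means of nr3c1 and prkaa1 were 0.356 and 0.931 FPKM, so these passed it only through the controls.

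**Figure D5:**
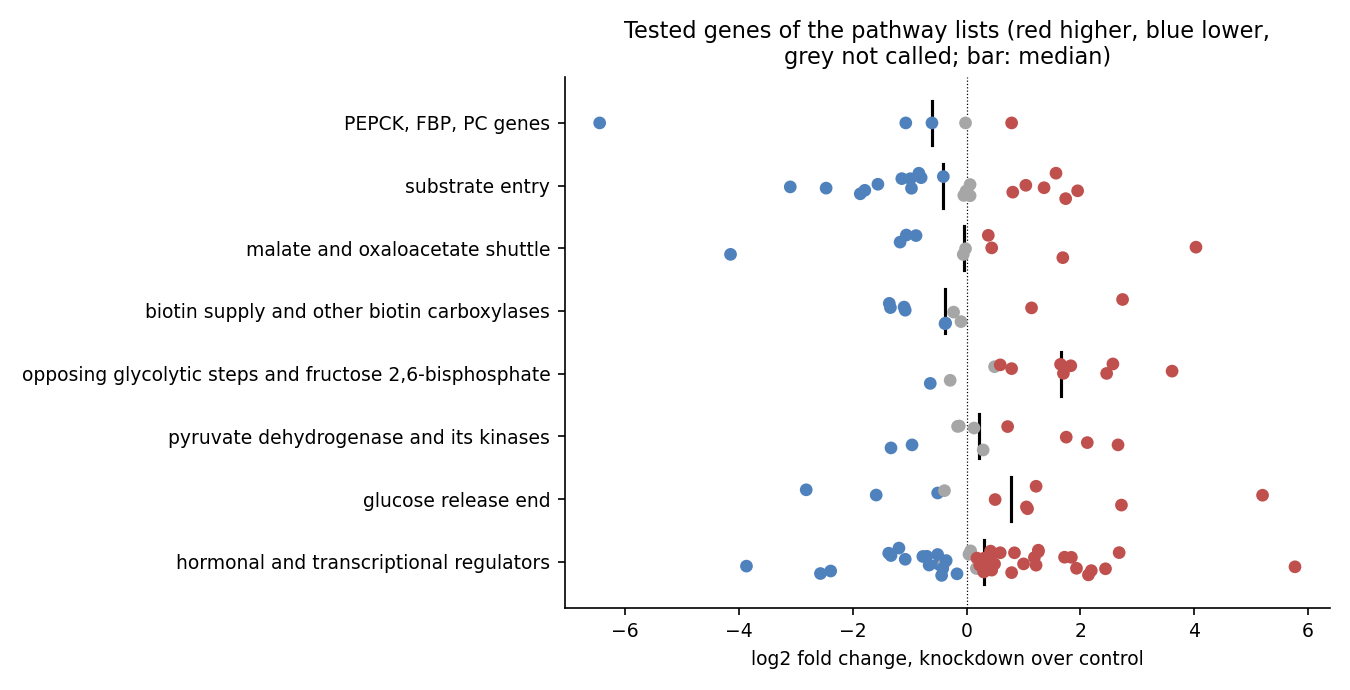
Log2 fold change, knockdown over control, of the tested genes of each list (points spread vertically for legibility; red called higher, blue called lower, grey not called; bar, median of the list). The gene pck1 at -6.45 lies farther to the left than any gene of the 7 pathway lists, and only the list of opposing glycolytic steps has a median above 1.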

How the data were processed

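Liver poly(A) RNA of 6 libraries was read as pairs of 150 bp. Cutadapt 1.9 and HISAT were used, per the submitters' processing notes. The sources used here do not name the counting program, its settings or the genome build. Per the file headers, the deposited table holds a read count and an FPKM per gene and library. The deposited FPKM equalled count per length and per library total in 100% of values (relative tolerance 1e-05).

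Differences were computed from the deposited counts with edgeR 4.0.16 (R 4.3.3, TMM scaling, quasi-likelihood test, no covariate, both groups, Benjamini-Hochberg adjustment) over genes averaging at least 1 FPKM. The standard error is the log2 fold change divided by the square root of F. DESeq2 1.42.0, limma 3.58.1, other scalings, filters, a replicate block and leaving out each library were alternatives. Fits were run on simulated counts in which few genes changed, equally many up and down. In the data 78.2% of tested genes were called, so the simulated counts do not cover changes on that scale. Ratios and sums of FPKM were compared by exact permutation (scipy 1.17.1). Coordinates and linkage groups are those of the NCBI table. Its start and end equalled the deposited ones for all 6 members and for 99.99% of all genes found in it. Named genes are the members, their neighbours, their 3 nearest profiles, and up to 4 called genes per list with the largest change and no overlap between groups. The pyruvate kinase gene LOC100711399, slc25a10, LOC100534530, g6pc3, apoa4b, cdh17 and pdx1 fall outside that rule and were named after their values were seen. The same holds for LOC100690242, LOC100703768, LOC109195664, LOC100534398 and me2. It also holds for LOC100699903, LOC100703249, LOC100691210, got2, LOC100698967 and gpd2. LOC100711262, LOC100711978, LOC100711807, LOC100692791, LOC100709030 and LOC100709026 were likewise named after their values were seen. Members and lists were chosen with earlier results of these data known. Lists were matched by symbol or start of the product name.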

Additional observations from a re-analysis of the deposited data

How the results depend on the processing

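The log2 fold changes of pck1 (-6.55 to -5.80), pc (-0.71 to -0.55) and LOC100705870 (-1.16 to -1.01) kept their direction and their call under all 16 alternatives, including edgeR with other scalings or filters, DESeq2, limma and each library left out. Those of pck2 ranged from -0.12 to 0.04, with the 2 calls given above. LOC100703430 lost its call under 7 of its 15 alternatives and had no value with a mean FPKM of at least 5. The number of genes called was 8938, and 4662 with a mean FPKM of at least 5, where fewer genes (5469) were tested. With no filter 11873 of 22678 tested genes were called, and with edgeR's own filter 11152 of 15329. The share of all genes called thus depends on the filter. Without single libraries the number called was 8531 to 8784. The difference in the ratio of LOC100703430 to LOC100703707 changed from -0.68 to 0.20 with 1 FPKM added (exact permutation p = 0.3). As given above, LOC100703707 had 1 control read, and the size of that difference depends on the constant added. Same-numbered libraries did not deviate together (correlations of 0.001 to 0.007 across genes), and with a replicate block 8856 genes and 4 members were called. Few reads limit LOC100703430 and LOC100703707.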
